A study of Mus musculus with 16 samples.

Results

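Potassium channel subunits were taken as the protein-coding genes whose symbol starts with Kcn, with 1 such gene left out, plus Abcc8 and Abcc9, the sulfonylurea receptors that complete ATP-sensitive (KATP) channels. This gave 87 of the 24371 genes in the table. They comprised 35 voltage-gated pore subunits, 14 inward rectifiers, 13 accessory subunits, 12 calcium- or sodium-activated channels, 11 tandem-pore channels and 2 sulfonylurea receptors. A filter on low counts, set to a minimum of 10, passed 52 of the 87, and 48 had a mean of at least 10 counts over the 16 libraries. The other 35 were too low to test.

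RNA was measured in bulk hearts of mice in which heart failure with preserved ejection fraction (HFpEF) had been modelled over 12 weeks with a high-fat diet and L-NAME, which blocks the synthesis of nitric oxide. There were 4 groups of 4 libraries. Floxed hearts came from Gpr91fl/fl mice, which carry loxP sites in both copies of the gene for the succinate receptor, and Cre hearts from Myh6Cre Gpr91fl/fl mice, in which the cardiomyocyte promoter Myh6 drives Cre recombinase. Each genotype was studied without and with succinate. The design asks what succinate changes in these hearts and whether that depends on the receptor in cardiomyocytes. All groups carried the model and the floxed alleles, so neither the model nor the Cre transgene alone had a comparison group here. The sources used here state neither the succinate dose nor the age of the mice, and nothing in the labels says that the libraries came from separate animals. The p-values therefore measure the spread between these libraries, which may be in part technical.

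Potassium channels carry the outward currents that end the cardiac action potential and the inward rectifier current that holds the resting potential. In mouse ventricle, where the action potential is short, repolarisation rests mainly on a fast transient outward current (Kv4 pore subunits with the accessory protein KChIP2) and on ultrarapid and slow delayed currents (the first carried by Kv1.5). The rapid and slow delayed rectifiers (hERG and KvLQT1), which dominate in larger mammals, are minor currents in adult mouse heart. KATP channels couple membrane potential to metabolism and pair an inward rectifier pore with a sulfonylurea receptor.

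Total counts ranged from 27835235 to 34700996 per library, so that a floor of 3 counts stood at 0.0865 to 0.108 CPM, where CPM is the count scaled by the library total. This floor covers counting error only. Channel genes together took from 0.114% to 0.162% of a library's counts. The tissue label held against its markers, with 9 cardiomyocyte genes together at 49190 to 66980 CPM. Of the 7 atrial markers listed, Sln, Myl7 and Bmp10 were at or near 0 in all libraries, the highest value being 0.359 CPM. The other 4 were detected. Nppa had 63.4 to 1757 CPM, Stard10 15.6 to 31.7, Dkk3 0.84 to 9.40 and Myl4 0.63 to 2.73 CPM. Counts of Sucnr1, the floxed gene under its current symbol, were 0 to 21 per library and did not separate the genotypes, so the knockout could not be checked from this gene. Replicate 4 of the floxed hearts and replicate 1 of the Cre hearts stood apart from their groups on principal components. These are the libraries said below to stand apart, and some results are also given without them. Replicate 4 of the treated floxed hearts also lay low on the third component (-25.6, against -7.75 to 15.2 in the rest of its group), as did replicate 4 of the floxed hearts (-36.4). The treated replicate 4 was left out only in fits that each left out 1 library.

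On the length-scaled FPKM scale the tandem-pore channel Kcnk3 (TASK-1, a background leak channel) had the highest level, at a mean of 56.3 over the 16 libraries. It was followed by Kcnip2 (KChIP2) at 48.0, Kcnj11 (Kir6.2, the ventricular KATP pore) at 40.4 and Abcc9 (SUR2, its partner in ventricle) at 35.9. Kcng2 (Kv6.2, a silent subunit that conducts only with Kv2 partners) had a mean of 24.97 FPKM, Kcnj8 (Kir6.1, a vascular KATP pore) 19.8 and Kcna5 (Kv1.5) 17.2. Kcnj5 (Kir3.4) had 10.1, Kcnh2 (hERG) 7.87 and Kcnq1 (KvLQT1) 7.72. The library ranges of each pair of neighbours among these 10 overlapped in at least 2 of the 4 groups. They overlapped in all 4 for Kcnk3 and Kcnip2, Kcng2 and Kcnj8, Kcnj8 and Kcna5, Kcna5 and Kcnj5, and Kcnh2 and Kcnq1, so the order of these is not settled. In all, 23 tested genes had a mean of at least 1 FPKM, 8 had at least 10, and 8 lay under 0.1.

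**Figure D1:**
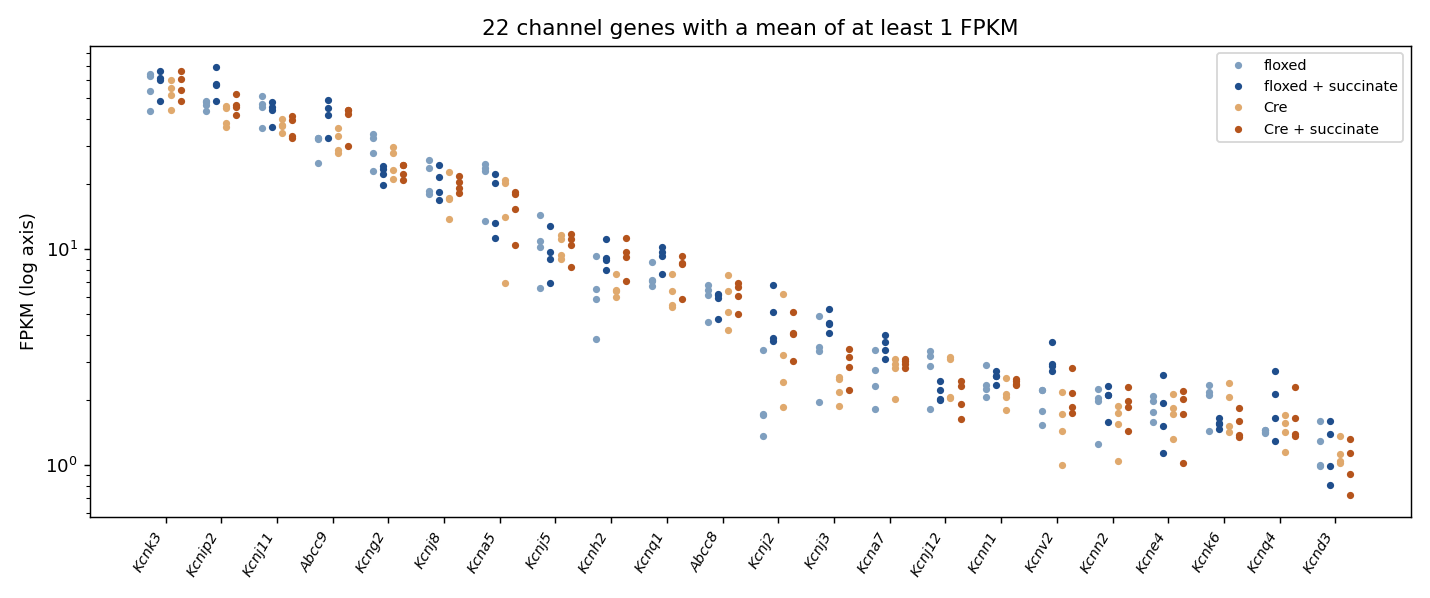
Each point is the FPKM value (log axis) of 1 library, coloured by group, for 22 of the 23 channel genes with a mean of at least 1 FPKM, ordered by that mean. Levels run from a mean of 56.3 for Kcnk3 to 1.14 for Kcnd3, and for most genes the 4 groups share a range; Kcnd2, whose deposited mean lies under 1 FPKM, is not among them.

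The deposited FPKM values of 2 genes of the transient outward current rest on long gene models. The gene length implied by the deposited values was 98276 bases for Kcnd2 (Kv4.2), against 5152 bases for the union of its exons in the GENCODE M21 annotation, a ratio of 19.1. For Kcna4 (Kv1.4) it was 33502 against 4792 bases, a ratio of 6.99. The median ratio over the 52 tested genes was 1.23, and the next highest was 3.54. Scaled by the GENCODE length, the mean level of Kcnd2 would be 2.38 CPM per kilobase, against the deposited 0.125 FPKM. It is not known which annotation the authors counted over, so neither value is settled, and reads outside these exons would make the first too high. On that scale Kcnip2, at 61.3, lay above Kcnk3, at 56.3, and Kcnd2 lay above its relative Kcnd3 (Kv4.3) at 1.68, whereas the deposited FPKM put Kcnd3, at 1.14, above Kcnd2, so the order of this pair depends on the length taken. Ratios of counts between groups do not depend on gene length.

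Succinate in floxed hearts raised 6 of the 52 tested channel genes and lowered none (edgeR quasi-likelihood test, Benjamini-Hochberg adjusted p under 0.05 over 14607 genes). They were Kcnd2, Kcnip2, Kcnj2, Kcnv2, Kcna7 and Abcc9. That is 11.5% of the tested channel genes, near the 13.1% of all tested genes called in this comparison. Of all tested genes 7.48% were called higher. The median log2 fold change of the 52 was 0.09, against 0.00 for all tested genes, with 30 positive and 22 negative. The counts varied with the libraries used. Counts over all genes are not given for the fits below, so this is not shown to be particular to channel genes. Only 1 channel gene was called without replicate 1 or 3 of the floxed hearts or without replicate 1 or 3 of the succinate-treated floxed hearts, and 3 without replicate 4 of the floxed or replicate 2 of the treated hearts. Without replicate 3 of the treated hearts the 1 call was a lower gene, and without replicate 2 of the floxed hearts 9 were called. Without both libraries that stand apart, 7 were called, of which 5 were higher, and Kcnd2 and Kcna7 lost the call.

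Succinate in Cre hearts gave no call among the 52 with edgeR, against 0.917% of all tested genes, nor with DESeq2 or limma on FPKM. At an unadjusted p under 0.05 there were 7 of the 52, against 2054 of all 14607 tested genes. The smallest adjusted p was 0.151, for Kcnq1. Of the 52 log2 fold changes, 35 were positive, and their median was 0.14 against 0.01 for all genes. Averaged over both genotypes, which reuses the same libraries, 9 channel genes rose and none fell. These 9 were Abcc9, Kcnd2, Kcnq1, Kcnh2, Kcnv2, Kcnip2, Kcnj3, Kcna2 and Kcnj2. This is 17.3% of the tested channel genes, where 19.0% of all tested genes were called and 10.6% were called higher. For Abcc9, Kcnd2, Kcnh2, Kcnip2, Kcnq1 and Kcnv2 the averaged call held in 16 of 16 fits that each left out 1 library. Without both libraries that stand apart, the averaged calls of Kcna2 and Kcnj2 were lost.

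The genotype-by-succinate interaction, which tests whether the response differed between Cre and floxed hearts, gave 0 calls among the channel genes and 0% among all genes with edgeR, and 0 channel genes with DESeq2 and limma. None of the 52 had an unadjusted p under 0.05 for it, against 709 of all 14607 tested genes. The 6 calls in floxed hearts and the absence of calls in Cre hearts are thus not shown to be a difference between the genotypes. Bulk RNA cannot tell fewer cells of a type from less RNA per cell.

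**Figure D2:**
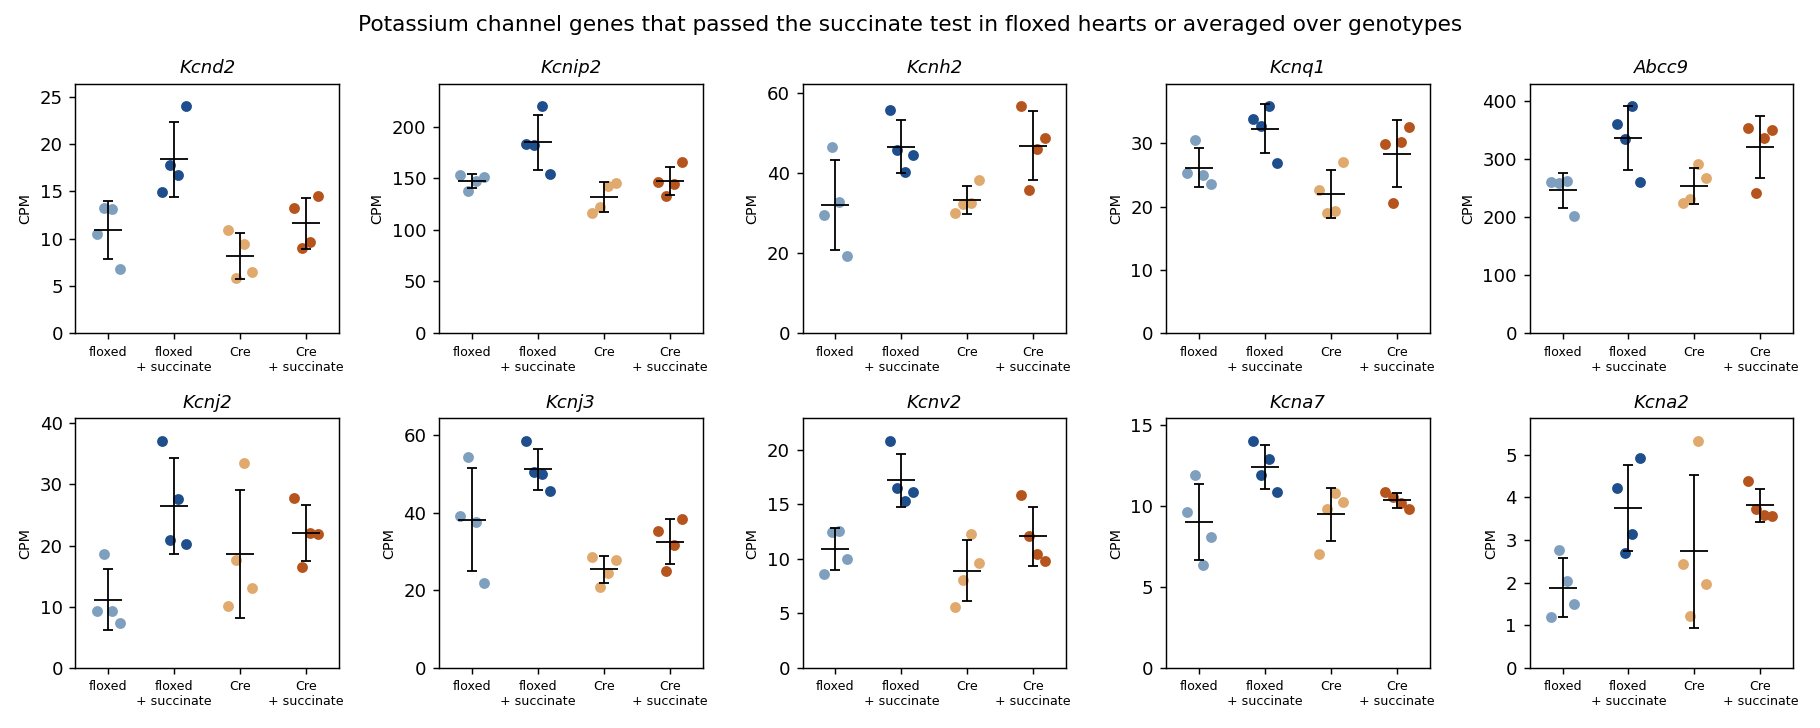
Each point is the CPM of 1 library, for the 10 channel genes called for succinate in floxed hearts or averaged over genotypes; the bar marks the mean of 4 libraries and the whiskers the SD. In floxed hearts Kcnd2, Kcnip2, Kcnj2 and Kcnv2 do not overlap between the groups with and without succinate, whereas in Cre hearts all 10 overlap.

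The promoters of the called genes with a steady averaged call are shown because these genes moved in the same direction. A RefSeq promoter (assembly GRCm38.p6, 250 bases before to 50 after the start of the gene) was found for 4 of these 6, namely Abcc9 at chr6:142702225-142702524 (minus strand), Kcnd2 at chr6:21215096-21215395 (plus strand), Kcnh2 at chr5:24329542-24329841 (minus strand) and Kcnip2 at chr19:45816014-45816313 (minus strand). Each is printed 5′ to 3′ on the strand of its gene, and capitals mark matches to the motifs searched on both strands. The first motif was CCACCC, a box bound by Krüppel-like factors that reads as its reverse complement on the other strand. The second was AGGTCA, the core element that nuclear receptors recognise. The next was CACGTG, an E-box to which clock factors bind among others, and the last was TATAAA, which many start sites hold upstream (the TATA box). The letters of these motifs do not overlap each other.
Abcc9 promoter: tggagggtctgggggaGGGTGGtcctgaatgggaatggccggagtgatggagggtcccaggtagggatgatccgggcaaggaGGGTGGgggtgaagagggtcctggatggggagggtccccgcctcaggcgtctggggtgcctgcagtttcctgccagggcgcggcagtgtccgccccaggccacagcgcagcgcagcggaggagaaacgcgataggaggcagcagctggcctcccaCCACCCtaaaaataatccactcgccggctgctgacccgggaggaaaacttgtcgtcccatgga
Kcnd2 promoter: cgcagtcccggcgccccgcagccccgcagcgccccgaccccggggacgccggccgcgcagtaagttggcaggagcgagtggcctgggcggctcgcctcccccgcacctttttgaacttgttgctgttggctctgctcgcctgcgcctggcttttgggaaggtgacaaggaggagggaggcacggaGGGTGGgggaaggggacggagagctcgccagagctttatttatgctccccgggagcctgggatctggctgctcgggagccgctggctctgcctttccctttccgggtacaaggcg
Kcnh2 promoter: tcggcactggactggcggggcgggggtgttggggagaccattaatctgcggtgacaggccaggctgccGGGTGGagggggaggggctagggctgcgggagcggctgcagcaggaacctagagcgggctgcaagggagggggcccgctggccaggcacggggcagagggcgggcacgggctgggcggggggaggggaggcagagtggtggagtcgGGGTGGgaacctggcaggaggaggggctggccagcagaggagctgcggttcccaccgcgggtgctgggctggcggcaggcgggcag
Kcnip2 promoter: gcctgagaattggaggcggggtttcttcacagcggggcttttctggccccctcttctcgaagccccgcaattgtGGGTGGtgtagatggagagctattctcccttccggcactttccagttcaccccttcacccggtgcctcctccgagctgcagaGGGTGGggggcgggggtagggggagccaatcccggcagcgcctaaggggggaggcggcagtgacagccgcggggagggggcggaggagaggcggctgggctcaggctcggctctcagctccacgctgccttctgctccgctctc

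All capitals above are CCACCC or its reverse. The Abcc9 promoter held 3 matches, at 13, 168 and 234 bases before the start of the gene, counted to the first base of the match. Kcnh2 held 2, Kcnip2 held 2 and Kcnd2 held 1. The other 3 motifs had no match in these 4 windows. Of all 32851 RefSeq promoters 31.5% held CCACCC on either strand, as did 33.6% of those of protein-coding genes and 69.4% of those of tested channel genes (25 of 36). The share of all promoters was 16.3% for the nuclear receptor motif, 7.15% for the E-box and 13.6% for the TATA box. A match is a description of letters, not of binding.

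Of the fast transient outward current, Kcnd2 and Kcnip2 rose with succinate. Kcnd2, the pore subunit Kv4.2, had 10.5, 13.2, 13.2 and 6.76 CPM in floxed hearts (replicates 1 to 4) and 14.9, 17.8, 16.8 and 24.0 CPM in succinate-treated floxed hearts. All 4 treated libraries lay above all 4 untreated ones. The log2 fold change was 0.81 ± 0.23 (SE, 4 against 4 libraries, edgeR adjusted p = 0.028). In Cre hearts Kcnd2 had 10.9, 5.77, 9.48 and 6.51 CPM without and 13.2, 8.99, 9.65 and 14.5 CPM with succinate. These groups overlapped, and the log2 fold change of 0.55 ± 0.23 did not pass (adjusted p = 0.289). Averaged over genotypes it was 0.68 ± 0.16 (adjusted p = 0.00793). The floxed call was lost without replicate 1 or 4 of the floxed hearts or replicate 3 or 4 of the treated ones, with log2 fold changes from 0.63 to 0.89 over all left-out fits.

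Kcnip2 encodes KChIP2, the accessory protein that brings Kv4 channels to the membrane and shapes their inactivation. Its values were 153, 138, 148 and 151 CPM in floxed hearts and 183, 182, 220 and 154 CPM in succinate-treated floxed hearts. The lowest treated library lay just above the highest untreated one. The log2 fold change was 0.37 ± 0.11 (adjusted p = 0.0347). Cre hearts had 116, 122, 143 and 145 CPM without and 147, 133, 145 and 166 CPM with succinate, an overlapping difference of 0.20 ± 0.11 (adjusted p = 0.435). The floxed call was lost without any of replicates 1 to 3 of either floxed group. The averaged one, 0.29 ± 0.08, kept an adjusted p of at most 0.0487 over the left-out fits.

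Other subunits of the transient outward current did not pass in any comparison. Kcnd3, the second Kv4 pore gene of heart, had a mean of 13.6 ± 3.19 CPM in floxed and 13.3 ± 4.03 CPM in treated floxed hearts (SD, n = 4 each). The log2 fold change was 0.03 ± 0.21 in floxed and -0.12 ± 0.21 in Cre hearts. The log2 ratio of Kcnd2 to Kcnd3 counts did not overlap in Cre hearts, at -0.67 ± 0.35 without and 0.03 ± 0.17 with succinate (SD). The exact permutation p was 0.0286, the smallest possible, and 0.0952 after adjustment, so it did not pass. In floxed hearts this ratio was -0.34 ± 0.42 and 0.49 ± 0.73 (SD, exact permutation p = 0.0857, adjusted 0.171). That of Kcnip2 to Kcnd2 did not pass either (exact permutation p = 0.257 in floxed and 0.286 in Cre hearts). The antisense gene Kcnd3os had 0.38 to 1.09 CPM over the 16 libraries, and since it is unknown whether counting used strand, its reads cannot be told apart from those of Kcnd3 where they overlap. Kcna4, the pore of the slow transient outward current, had 0.57 to 1.19 CPM with log2 fold changes of 0.30 ± 0.28 and 0.08 ± 0.28.

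Among the inward rectifiers of the resting potential Kcnj2 rose in floxed hearts. It encodes Kir2.1, the main pore of the inward rectifier current IK1, and had the largest log2 fold change among the 6 called genes. Its values were 9.23, 18.6, 9.36 and 7.40 CPM in floxed hearts and 37.1, 20.9, 27.7 and 20.3 CPM in succinate-treated floxed hearts. All treated libraries were above all untreated ones, although replicate 2 of the floxed hearts came near them. The log2 fold change was 1.31 ± 0.36, or 2.47-fold (adjusted p = 0.0292). In Cre hearts the values were 10.1, 17.6, 33.6 and 13.1 CPM without and 27.8, 16.4, 22.1 and 21.9 CPM with succinate. Replicate 3 of the untreated Cre hearts was higher than every treated Cre library, and the log2 fold change was 0.27 ± 0.35 (adjusted p = 0.792). The interaction for Kcnj2, -1.04 ± 0.51, had the smallest p of the 52 and did not pass (adjusted p = 0.97). The floxed call was lost without replicate 1, 3 or 4 of the floxed hearts or replicate 1 or 3 of the treated ones (log2 fold change 1.09 to 1.64 over left-out fits). The averaged call, 0.79 ± 0.25, was kept in 5 of 16 such fits, those without replicate 2 of the floxed, 2 or 4 of the treated floxed, 3 of the Cre or 2 of the treated Cre hearts.

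Kcnj12, which encodes Kir2.2, a further IK1 pore, had 24.8, 29.0, 27.7 and 15.6 CPM in floxed hearts and 21.1, 19.3, 17.3 and 17.4 CPM in treated floxed hearts. These overlapped only through replicate 4 of the floxed hearts, and the log2 fold change of -0.32 ± 0.18 did not pass (adjusted p = 0.257). The log2 ratio of Kcnj2 to Kcnj12 counts within a library was -1.18 ± 0.41 in floxed and 0.46 ± 0.34 in treated floxed hearts (SD, n = 4 each). Every treated library had a higher ratio than every untreated one, so that Kcnj2 had the fewer counts of the pair without succinate and the more with it. The exact two-sided permutation p was 0.0286, the smallest that 4 against 4 libraries can give, and it was 0.0952 after adjustment over the 10 ratio tests. In Cre hearts the ratio was -0.38 ± 0.76 and 0.29 ± 0.14 (exact permutation p = 0.0857, adjusted 0.171).

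**Figure D3:**
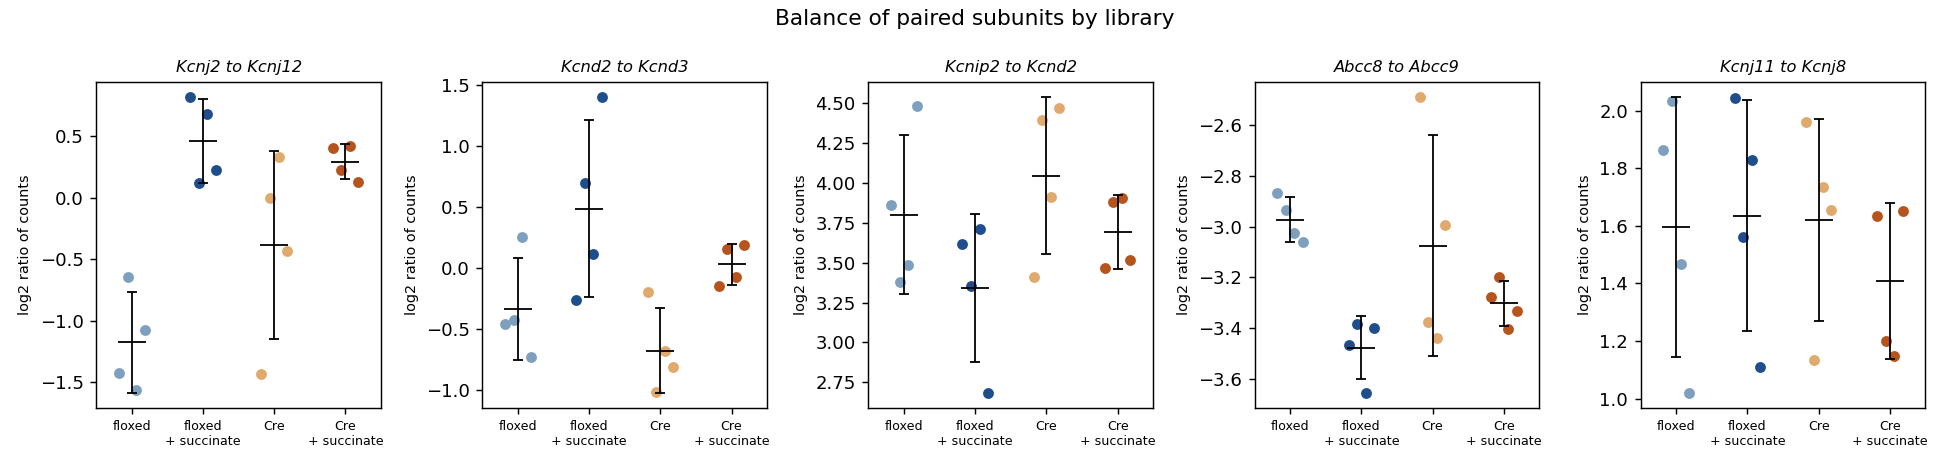
Each point is the log2 ratio of the counts of 2 subunits in 1 library (0.5 added to each count); the bar is the mean of 4 libraries and the whiskers the SD. The Kcnj2 to Kcnj12 ratio in floxed hearts goes from -1.18 to 0.46 with succinate and that of Abcc8 to Abcc9 from -2.97 to -3.48, without overlap in either. In Cre hearts that of Kcnd2 to Kcnd3 goes from -0.67 to 0.03, also without overlap. None passed after adjustment.

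Delayed rectifier genes included 2 averaged calls. Kcnh2, the hERG pore of the rapid delayed rectifier, had 29.4, 46.6, 32.8 and 19.2 CPM in floxed hearts and 55.7, 45.7, 40.2 and 44.5 CPM in treated floxed hearts. Replicate 2 of the untreated floxed hearts lay within the treated range, and the log2 fold change of 0.60 ± 0.20 just missed (adjusted p = 0.0519). In Cre hearts it had 29.9, 32.2, 32.4 and 38.3 CPM without and 56.6, 35.8, 45.9 and 48.7 CPM with succinate. Only replicate 2 of the treated Cre hearts fell within the untreated range, and the log2 fold change was 0.53 ± 0.19 (adjusted p = 0.22). The average was 0.56 ± 0.14 (adjusted p = 0.00927), with adjusted p at most 0.025 in the left-out fits.

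Kcnq1, the pore of the slow delayed rectifier, had 25.3, 30.6, 25.05 and 23.6 CPM in floxed and 33.9, 32.7, 35.9 and 26.8 CPM in treated floxed hearts. It had 22.6, 19.0, 19.3 and 27.04 CPM in Cre and 29.8, 20.6, 30.3 and 32.6 CPM in treated Cre hearts. In each genotype 3 of the 4 treated libraries lay above all untreated ones. The log2 fold changes were 0.36 ± 0.13 (adjusted p = 0.0828) and 0.41 ± 0.13 (adjusted p = 0.151), and their average, 0.38 ± 0.09, passed (adjusted p = 0.0088). The antisense transcript Kcnq1ot1, which lies within Kcnq1, had 1.02 to 3.04 CPM, and its reads could be counted with Kcnq1 where counting ignores strand. Kcne1, the accessory subunit of KvLQT1, had 1.05 to 4.47 CPM and log2 fold changes of 0.21 ± 0.28 and 0.66 ± 0.28 that did not pass (adjusted p = 0.669 and 0.307).

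Kcna5 (Kv1.5), the pore of the ultrarapid delayed current, did not pass. It had 68.5, 40.5, 74.3 and 70.8 CPM in floxed and 33.8, 60.4, 39.5 and 66.3 CPM in treated floxed hearts, with log2 fold changes of -0.30 ± 0.31 and, in Cre hearts, 0.05 ± 0.31. The spread within groups was wide, the widest being 20.9 to 62.3 CPM in untreated Cre hearts.

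Silent subunits form no channel alone and modify Kv2 pores. Of these Kcnv2 (Kv8.2) rose in floxed hearts, from 8.63, 12.5, 12.5 and 10 CPM to 20.8, 16.5, 15.3 and 16.1 CPM. The groups did not overlap, and the log2 fold change was 0.71 ± 0.21 (adjusted p = 0.0352). Cre hearts had 5.62, 8.06, 12.3 and 9.64 CPM without and 15.9, 12.1, 10.4 and 9.80 CPM with succinate, a difference of 0.47 ± 0.21 (adjusted p = 0.335). The floxed call was lost in 7 left-out fits, those without replicate 1, 3 or 4 of the floxed or any of the treated floxed libraries (log2 fold change 0.60 to 0.76). The averaged value was 0.59 ± 0.15 (adjusted p = 0.0115). Kcng2 had 99.9, 104, 85.7 and 70.7 CPM in floxed and 71.6, 68.5, 74.1 and 60.8 CPM in treated floxed hearts. Its log2 fold change of -0.34 ± 0.12 did not pass (adjusted p = 0.0603), nor did that in Cre hearts, -0.10 ± 0.12.

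Among the Kv1 genes, Kcna7 (Kv1.7) was called in floxed hearts, with 9.58, 11.9, 6.36 and 8.09 CPM without and 13.98, 11.9, 12.9 and 10.8 CPM with succinate. The groups overlapped, and the log2 fold change of 0.52 ± 0.17 (adjusted p = 0.0481) passed in 4 of 16 left-out fits, those without replicate 2 of the floxed, replicate 4 of the treated floxed, or replicate 1 or 3 of the untreated Cre hearts. In Cre hearts the difference was 0.16 ± 0.17 and the average missed (adjusted p = 0.0515). Kcna2 (Kv1.2) had 1.19, 2.78, 2.04 and 1.5 CPM in floxed and 4.23, 2.70, 3.15 and 4.92 CPM in treated floxed hearts. Its log2 fold change was 1.05 ± 0.36 there (adjusted p = 0.0606) and 0.52 ± 0.35 in Cre hearts, where replicate 3 without succinate, at 5.32 CPM, was the highest library of all. The averaged call of Kcna2, 0.78 ± 0.25 (adjusted p = 0.0354), held in 5 of 16 left-out fits, those without replicate 2 or 3 of the treated floxed, replicate 2 of the floxed, or replicate 3 of either Cre group.

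Among KATP channel genes only Abcc9 passed for succinate. This SUR2 receptor gene had 261, 260, 263 and 201 CPM in floxed hearts and 361, 335, 391 and 261 CPM in treated floxed hearts. In each of these groups replicate 4 was the lowest, and the treated replicate 4 lay within the untreated range. The log2 fold change was 0.50 ± 0.14 (adjusted p = 0.0241). In Cre hearts Abcc9 had 224, 231, 291 and 268 CPM without and 354, 241, 336 and 351 CPM with succinate, with replicate 2 the low treated library. The log2 fold change there was 0.37 ± 0.14 (adjusted p = 0.222), and the average of 0.44 ± 0.10 had the smallest adjusted p of the 52, 0.00494. The floxed call was lost without replicate 3 or 4 of the floxed or replicate 1 or 3 of the treated floxed hearts.

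The pore genes of these channels did not pass. Kcnj11 (Kir6.2) averaged 164 ± 22.2 CPM in floxed and 159 ± 17.5 CPM in treated floxed hearts (SD, n = 4 each), a log2 fold change of 0.01 ± 0.11, and 0.02 ± 0.11 in Cre hearts. For Kcnj8 (Kir6.1) the log2 fold changes were -0.03 ± 0.16 and 0.20 ± 0.16. In the RefSeq order of protein-coding genes Kcnj8 and Abcc9 are neighbours on chromosome 6, as are Kcnj11 and Abcc8 on chromosome 7. Abcc9 thus rose beside a neighbour that did not pass. Abcc8 (SUR1) averaged 31.5 ± 5.13 CPM in floxed and 30.1 ± 3.63 CPM in treated floxed hearts, a log2 fold change of -0.01 ± 0.15. The log2 ratio of Abcc8 to Abcc9 counts was -2.97 ± 0.09 in floxed and -3.48 ± 0.12 in treated floxed hearts, without overlap (exact permutation p = 0.0286, the smallest possible, adjusted 0.0952), so it did not pass after adjustment. In Cre hearts this ratio was -3.07 ± 0.44 and -3.30 ± 0.09 (exact permutation p = 0.429).

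The muscarinic potassium current is carried by Kir3.1 and Kir3.4 and slows the atria and nodes when the vagus is active. Kcnj3 (Kir3.1) had 39.2, 54.2, 37.6 and 21.8 CPM in floxed and 58.4, 50.4, 49.97 and 45.7 CPM in treated floxed hearts. It had 28.4, 20.8, 24.3 and 27.9 CPM in Cre and 35.2, 24.9, 31.6 and 38.3 CPM in treated Cre hearts. With succinate all 4 Cre libraries lay below all 4 floxed ones, and without it only replicate 4 of the floxed hearts fell among them. The succinate effect passed only as an average, 0.44 ± 0.13 (adjusted p = 0.0317), and kept the call in 8 of 16 left-out fits. It was lost without replicate 1 or 3 of the floxed, 1 or 3 of the treated floxed, 1 or 2 of the Cre, or 1 or 4 of the treated Cre hearts. For Kcnj5 (Kir3.4) the log2 fold changes were -0.07 ± 0.19 in floxed and 0.05 ± 0.19 in Cre hearts.

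Tandem-pore channels set background potassium conductance, and none of the 5 tested was called for succinate. Kcnk3 had 164.9 to 252.4 CPM over the 16 libraries, with log2 fold changes of 0.13 ± 0.13 and 0.17 ± 0.13. Among calcium- and sodium-activated channels none of 7 was called either. Kcnn3 (SK3, a small-conductance calcium-activated channel) had 1.12, 1.07, 1.90 and 1.02 CPM in floxed and 0.66, 0.30, 0.90 and 0.32 CPM in treated floxed hearts. Kcnn4 (the intermediate-conductance channel SK4, known from immune and vascular cells) had 0.84, 0.88, 0.83 and 0.68 CPM and 0.33, 0.14, 0.48 and 0.11 CPM. Neither gene overlapped between these groups. Their log2 fold changes of -1.16 ± 0.40 and -1.53 ± 0.61 did not pass (adjusted p = 0.0637 and 0.104). In these hearts the 8 macrophage markers had a summed level of 258 to 391 CPM without and 139 to 222 CPM with succinate, and 6 of 8 fell; their part in the Kcnn4 values was not tested.

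Of the 52 channel genes, 7 did not overlap between the floxed groups, against 17.5% of all tested genes, 4 of them higher and 3 lower (Kcnn3, Kcnn4 and Kcnj15). In Cre hearts 2 did not overlap, against 7.48% of all tested genes. These were Kcnab3, a beta subunit of Kv1 channels, at 0.03 to 0.20 CPM without and 0.29 to 0.54 CPM with succinate, and Kcnd1 (Kv4.1), which was lower. Kcnab3 had a log2 fold change of 1.47 ± 0.55 at this low level (adjusted p = 0.231). Kcne3, an accessory subunit, lay at 0.10 to 0.72 CPM, with log2 fold changes of -0.30 ± 0.52 in floxed and -1.07 ± 0.54 in Cre hearts (adjusted p = 0.747 and 0.39).

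**Figure D4:**
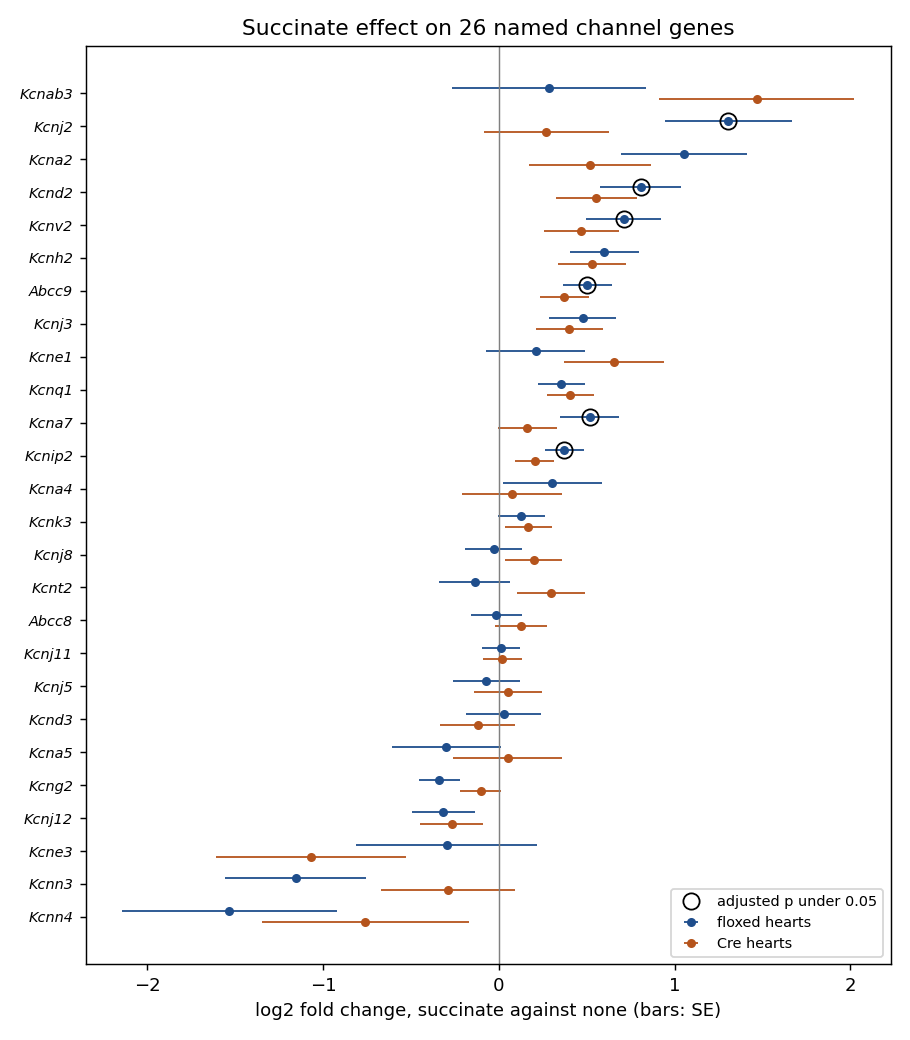
Points are edgeR log2 fold changes for succinate against none in floxed and Cre hearts (4 against 4 libraries each), bars are SE, and ringed points have an adjusted p under 0.05. The 6 ringed values lie between 0.37 (Kcnip2) and 1.31 (Kcnj2) and are all from floxed hearts.

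By family, voltage-gated pore subunits had 3 of 21 called in floxed hearts, with 15 of 21 log2 fold changes positive and a median of 0.36. In Cre hearts 14 of 21 were positive with a median of 0.24. Inward rectifiers had 1 of 8 called and a median of -0.01 in floxed hearts, accessory subunits 1 of 9 and 0.01, and the sulfonylurea receptors 1 of 2. These counts are to be read against the 13.1% of all tested genes called in floxed hearts, where 50.3% of all log2 fold changes were positive. The 5 tandem-pore genes had a median of -0.33 in floxed and 0.12 in Cre hearts.

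Marker genes moved with succinate as well. The summed level of 9 cardiomyocyte markers was 52110 to 59120 CPM in floxed and 58390 to 66980 CPM in treated floxed hearts. Of this Myh6 alone stood at 13290 to 18590 CPM and 19540 to 26990 CPM, so the sum mostly follows Myh6. Myl2 stood at 7165 to 10000 CPM and 6461 to 8585 CPM. Of the 9 log2 fold changes 7 were positive, with a median of 0.09, and 2 of 9 genes passed. The 7 atrial markers summed to 200 to 499 CPM and 87.7 to 113 CPM, of which Nppa alone stood at 171 to 466 CPM and 63.4 to 90.15 CPM, and 1 of 4 tested was called. With a score of the 4 tested markers as a covariate 0 channel genes were called in floxed hearts and 1 as an average. This score was -0.353 to 0.154 in floxed and -0.983 to -0.589 in treated floxed hearts. As the score did not overlap between these groups, a fit with it cannot tell it apart from succinate there, and lost calls say little. Of the 6 genes called in floxed hearts, the log2 fold change with this covariate was larger for Kcnd2, at 1.34 (adjusted p = 0.291), and smaller for the other 5, from 0.05 for Kcnip2 to 0.74 for Kcnj2. Of the averaged calls Kcnd2 stayed, at 0.98 (adjusted p = 0.0476), while Kcnj3 (0.47, adjusted p = 0.301) and Kcna2 (0.89, adjusted p = 0.275) lost the call with log2 fold changes no smaller than without the covariate. The 9 smooth muscle and pericyte markers summed to 1248 to 1491 CPM and 1057 to 1259 CPM. With their score as a covariate 1 was called in floxed hearts, Kcnd2 (1.06, adjusted p = 0.0399). Of the averaged calls Abcc9, Kcnd2, Kcnh2, Kcnj3, Kcnq1 and Kcnv2 stayed with this covariate (adjusted p from 0.00614 to 0.0391). Kcnip2 (0.24, adjusted p = 0.05, at the limit), Kcna2 (0.72, adjusted p = 0.0925) and Kcnj2 (0.65, adjusted p = 0.119) lost the averaged call. The smooth muscle and pericyte score was -0.14 to 0.589 in floxed and -0.2 to -0.141 in treated floxed hearts. These ranges nearly met, unlike those of the atrial score, so the fit can tell the score apart from succinate there only in part. The part of these cell types in the channel results was not tested.

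Within groups, libraries also varied along 2 genes of repolarisation. Across 16 libraries, log2 Kcnj2 and log2 Kcna5 went opposite ways, with Pearson's r = -0.80 and Spearman's rho = -0.84. This pair was chosen after its values were seen, as the lowest within-group r of 300 pairs among 25 channel genes with a mean of at least 100 counts. The permutation p was 0.00013 for this pooled r and 6e-05 for rho (100000 permutations), and 0.006 for each after adjustment over the 300 pairs. Libraries were shuffled across all groups, so these p-values do not measure the relation within groups. Without the 2 libraries farthest from the median of Kcna5, r was -0.79. With each group centred on its mean, r over the 16 libraries was -0.94, for which no p-value was computed. Replicate 3 of the Cre hearts had the lowest Kcna5 of all libraries, 20.9 CPM, and the second highest Kcnj2, 33.6 CPM. The libraries share preparation and normalisation.

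**Figure D5:**
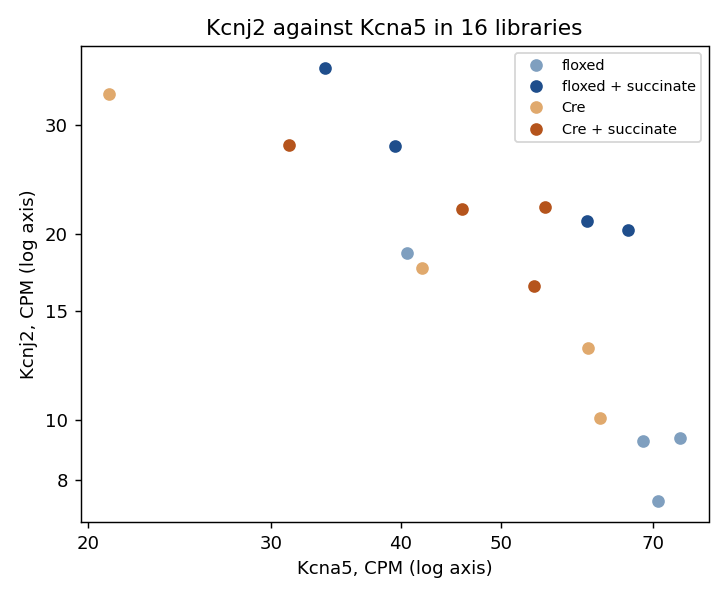
Kcna5 (horizontal) and Kcnj2 (vertical) are plotted in CPM on log axes for 16 libraries coloured by group. Libraries with more Kcna5 have less Kcnj2 (r = -0.80), and replicate 3 of the Cre hearts stands at the upper left.

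Other pairs varied together. With groups centred, Kcng2 and Kcnk3 had r = 0.93, Kcnj11 and Kcnk3 0.93, and Kcnj5 and Kcnk3 0.90 over 16 libraries. The pooled r of these pairs was 0.55 (permutation p = 0.028, adjusted 0.0934), 0.73 (permutation p = 0.00149, adjusted 0.0172) and 0.80 (permutation p = 0.00012, adjusted 0.006). In all, 60 of the 300 pairs had an adjusted p of r under 0.05. These permutation p-values too come from libraries shuffled across all groups. Pairs of other genes were not computed, so this count is not shown to be particular to channel genes.

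Other genes of the action potential were read in the same fit. Of 16 tested sodium, calcium, pacemaker, exchanger and gap junction genes and accessory pump subunits, 2 rose and none fell with succinate in floxed hearts, with a median log2 fold change of 0.14. Of all tested genes 7.48% were called higher and 13.1% in either direction. They were Cacna2d1, an accessory subunit of calcium channels, by 0.50, and Ryr2, the calcium release channel, by 0.72 on the log2 scale. None of the 16 was called in Cre hearts, where the median was 0.13. As an average 3 rose and none fell, namely Cacna2d1 (0.36), Ryr2 (0.60) and the gap junction gene Gjc1 (0.24), where 10.6% of all tested genes were called higher.

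Channel partners and regulators are likewise set against all tested genes, of which 13.1% were called in floxed hearts (7.48% higher) and 19.0% as an average (10.6% higher). Of 11 tested anchors and partners, 1 rose in floxed hearts, Nedd4l (an E3 ligase of ion channels), by 0.52, and 3 rose as an average, the others being the ankyrins Ank2 (0.37) and Ank3 (0.40). Of 21 tested transcription factors and regulators linked to cardiac potassium channels, 3 rose in floxed hearts, namely Klf15 (0.36), Foxo1 (0.37) and Rest (0.58), a share near that of all genes called. KLF15 is known as a transcriptional regulator of Kcnip2 in mouse heart. As an average 7 of 21 rose, with Irx3 (0.40), Mef2c (0.25), Tbx5 (0.65) and Zfpm2 (0.49) added. The median of the 21 was 0.25 in floxed and 0.04 in Cre hearts, and none was called in Cre hearts.

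Cre and floxed hearts were compared at each succinate status. No channel gene was called by edgeR without succinate (0.11% of all tested genes) or with it (0.691% of all tested genes). At an unadjusted p under 0.05 there were 2 of 52 channel genes without succinate, against 1278 of all 14607 tested genes. With it there were 6 of 52, against 1617 of 14607. DESeq2 called 0 and 2. Kcnj3 had the smallest p without succinate, at -0.61 ± 0.19 (adjusted p = 0.35), and was -0.69 ± 0.19 with it (adjusted p = 0.126). Without replicate 4 of the floxed hearts, which stands apart, Kcnj3 passed in both (-0.80, adjusted p = 0.034, and -0.69, adjusted p = 0.02), as it did without both libraries that stand apart (adjusted p = 0.0234 and 0.0188). Kcnt2 (a sodium-activated channel) had 2.20, 2.64, 2.38 and 2.16 CPM in treated floxed and 3.96, 4.36, 5.45 and 2.51 CPM in treated Cre hearts. Its log2 fold change of 0.75 ± 0.20 did not pass (adjusted p = 0.103), but did without replicate 4 of the treated Cre hearts (0.92, adjusted p = 0.0245).

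A genotype effect averaged over succinate, a comparison added after the data were seen, called 1 channel gene, against 1.88% of all tested genes. Kcnj3 was lower in Cre hearts by 0.65 ± 0.13 on the log2 scale, 8 against 8 libraries (log2 fold change -0.65, adjusted p = 0.0183), and the call held in 16 of 16 left-out fits. Kcnj11 was at -0.29 ± 0.08 (adjusted p = 0.0672), Kcnd2 at -0.57 ± 0.16 (adjusted p = 0.0875) and Kcnip2 at -0.27 ± 0.08 (adjusted p = 0.0888). Without replicate 4 of the floxed hearts 3 channel genes were called lower, as without both libraries that stand apart. Kcnj3 is known for high levels in atria. Of the atrial markers Sln, Myl7 and Bmp10 lay at or near 0 in all libraries, and of the 4 tested, 2 were called higher in Cre hearts. The list summed to 385 to 1784 CPM in Cre hearts without and 474 to 966 CPM with succinate. Nppa alone stood at 353 to 1757 CPM and 443 to 932 CPM of this. With the score of the 4 tested as a covariate the difference of Kcnj3 was -0.73 (adjusted p = 0.687). This score was -0.983 to 0.154 in all floxed and 0.217 to 0.809 in all Cre libraries. As these did not overlap, that fit cannot tell the score apart from genotype. The part of these markers in the Kcnj3 difference was not tested. On log2(FPKM + 1) limma gave -0.46 (adjusted p = 0.0503) and on log2(FPKM + 0.1) -0.58 (adjusted p = 0.053).

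The 35 genes below the filter had few reads. None was at 0 in all 16 libraries, 20 had 1 to 10 counts in all libraries together, and the highest mean among them was 7.12 counts. The lowest mean among genes that passed was 6.81, so the filter and the mean do not give the same order at the limit. By family 14 voltage-gated pore subunits, 6 inward rectifiers, 6 tandem-pore channels, 5 calcium- or sodium-activated channels and 4 accessory subunits were below it. Kcnma1, the large-conductance calcium-activated channel of smooth muscle, was among them, at a mean of 0.0116 FPKM. These genes were not tested for differences between groups.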

How the data were processed

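The analysis started from whole-number counts per gene and from FPKM, both as the authors deposited them for 16 mouse heart libraries. Each FPKM value is the authors' count divided by the library total and 1 length per gene. The tools HISAT2, HTSeq, fastp and DESeq2, R 3.2.0 and the build GRCm39 are listed without roles or settings, per the submitters' processing notes, and the labels' protocols name TRIzol extraction and the VAHTS Universal V6 kit. It is not known whether counting used strand.

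Counts entered edgeR 4.0.16 in R 4.3.3 with filterByExpr at a minimum count of 10, TMM factors (0.946 to 1.09) and a robust quasi-likelihood fit of 4 group means (12 residual degrees of freedom), and p-values were Benjamini-Hochberg adjusted over 14607 genes with calls under 0.05. Unless another tool is named, every adjusted p of a gene is from this edgeR fit. SE is the absolute log2 fold change divided by the square root of F. Ratios of 2 subunits were compared by exact two-sided permutation tests. The fit was tested on simulated data with known changes. Alternatives were DESeq2 1.42.0, limma 3.58.1 on log2(FPKM + 1) or log2(FPKM + 0.1), RLE factors, no filter or a mean of at least 10 counts, a fit of the 2 groups compared alone, marker scores as covariates, a replicate block, no mitochondrial genes, and each library left out. The average over succinate and the removal of both libraries that stand apart were added after seeing the data.

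Within groups r between libraries was 0.978 to 0.988, and counts differed beyond sampling noise (chi-square over degrees of freedom from 10.9 to 60.8), so each was treated as 1 sample. Replicate numbers shared between groups were not used to pair the libraries in the main fit. Deviations of same-numbered libraries correlated at -0.12 to 0.32, with 3 of 24 correlations over 0.1. Correlations of differently numbered libraries were not computed, so this cannot exclude pairing or a shared batch. Channel genes and companion lists were chosen with earlier results of these data known. Named genes are all that passed in a comparison, the subunits of the main cardiac currents, the 10 of highest mean FPKM, those with an absolute log2 fold change of at least 1, and the 3 of smallest p where fewer than 3 passed; other named genes were chosen after their values were seen, and a few genes under this rule are not reported here. The annotation tables in use are of GRCm38, not the build of the counts, and serve for promoters, lengths and gene order only. All 87 genes matched RefSeq, and promoters were found for 36 of the 52 tested.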

Additional observations from a re-analysis of the deposited data

Results flagged for a closer look

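Among 26 named channel genes in 4 groups, 4 of 104 sets of 4 libraries held 1 library far from the other 3, by Dixon's test at the 95% level. Chance flags about 1 set in 20, or 5.2 of 104, near the number found.

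Abcc9 had its lowest floxed value in replicate 4, at 201.2 CPM, where the other 3 libraries were at 259.6 to 262.6 CPM. In succinate-treated Cre hearts Abcc9 was lowest in replicate 2, at 241.0 CPM, with the others at 336.5 to 354.5 CPM. Kcne1 was highest in replicate 3 of the treated Cre hearts, at 4.473 CPM against 2.256 to 2.453 CPM. Kcnn3 was highest in replicate 3 of the floxed hearts, at 1.9 CPM against 1.024 to 1.123 CPM.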

How the results depend on the processing

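For succinate in floxed hearts, where 6 channel genes were called, DESeq2 called 11 (8 higher, 3 lower), the fit with no filter 3, the fit with a replicate block 3, the atrial score as a covariate 0, the smooth muscle and pericyte score 1, and limma 2 on log2(FPKM + 1) and 1 on log2(FPKM + 0.1). Leaving out 1 library gave 1 to 9. Calls over all tested genes under these settings are not given here, so the changes are not shown to be particular to channel genes. For the succinate average, with 9 calls, DESeq2 called 15 and the atrial covariate left 1. Without succinate the genotype call count went from 0 to 1 without both libraries that stand apart and ranged from 0 to 1 over left-out libraries. With succinate it was 2 with DESeq2, 1 with only the groups compared, 1 without both libraries that stand apart, and 0 to 1 over left-out libraries. The genotype average, with 1 call, had 5 with DESeq2, 2 with a replicate block, 0 with the atrial covariate, 4 with the smooth muscle covariate, 0 with limma on either FPKM scale, 3 without both libraries that stand apart, and 1 to 3 over left-out libraries. The block changed no call for succinate in Cre hearts, for the single genotype comparisons or for the interaction, which kept 0.

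Among log2 fold changes that were called or at least as large as their SE, 2 changed sign, both with the atrial score as a covariate. They were that of Kcnn4 for succinate in floxed hearts (0.13) and that of Kcnip2 for genotype with succinate (0.16). The cause of these changes was not tested. Of the other values of single genes and subunit ratios under the alternatives, 2389 kept their side of the threshold, 52 gained the call and 125 lost it. Changes of sign in uncalled ratios, or in uncalled fold changes smaller than their SE, were counted as kept. In floxed hearts an adjusted p of 0.05 is thus near the limit for these genes, and FPKM on a log scale with 1 added compresses Kcnd2, whose deposited FPKM is low. Genes near 10 counts per library are limited by depth.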
